A study of Mus musculus with 12 samples.

Results

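The comparison described here sets 3 wounds labelled pre-MCS-01 against 3 wounds labelled blank, chosen by the treatment label alone, which is 6 of the 12 libraries of the study. The study sequenced RNA of dorsal skin wounds in C57BL/6 mice made diabetic with streptozotocin, a toxin of the insulin-producing beta cell, and named MCS-01 as a mast cell stabilizer, a compound meant to keep mast cells from releasing their granules. The other 6 libraries, 3 labelled post-MCS-01 and 3 labelled DSCG, entered the model as separate groups so that all 12 shared an estimate of the spread. Pre-MCS-01 wounds are wounds of streptozotocin-diabetic C57BL/6 mice that carry the pre-MCS-01 label. Blank wounds come from streptozotocin-diabetic C57BL/6 mice as well and carry the label blank, with no statement of whether a vehicle was given. The labels do not define the prefix "pre" and give no dose, route, time after wounding, age or sex. Each library carries its own mouse number and holds total RNA of a wound frozen on removal. Replicates were numbered in record order, so a number pairs nothing across the groups, and the p-values cover only the spread between these mice.

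A skin wound is first entered by neutrophils, then by monocytes that become macrophages, while keratinocytes at its edge divide, migrate and make stress keratins, small proline-rich proteins and antimicrobial peptides. Fibroblasts then lay down collagen and elastic fibres, and dermal fat cells and hair follicles exchange signals with the repairing tissue. Diabetes prolongs the inflammatory stage, and mast cells, which store proteases and histamine, are among the cells that can feed it.

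Gene counts totalled 38913019 to 44413720 in the pre-MCS-01 libraries. In the blank libraries they totalled 50461867 and 45704405 in replicates 1 and 2 and 3835042 in replicate 3, where 3 counts amount to 0.782 CPM (counts scaled to a common library total) and a gene with no count could lie up to that level. Genes with long exons in total lay low in pre-MCS-01 replicate 2 and in blank replicate 3, where exon length and deviation from the mean library had a Spearman's rho of -0.384 and -0.319, against -0.020 and 0.339 in the other 2 pre-MCS-01 libraries and 0.221 and 0.281 in the other 2 blank libraries. These rho values describe a trend across genes, which are not independent replicates. The label of skin wound was checked on an epidermal and a dermal gene, Krt14 and Col1a1, both abundant in all 6 libraries. Krt14, the keratin of the basal epidermis, stood at 15684, 11693 and 9511 CPM in pre-MCS-01 wounds and at 7366, 6286 and 11107 CPM in blank wounds. All 6 libraries held transcripts of the Y-linked gene Ddx3y, between 28.2 and 33.7 CPM.

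No single gene separated the groups beyond the threshold. Of 16267 genes tested with edgeR's quasi-likelihood test and Benjamini-Hochberg adjustment, 0 (0%) had an adjusted p under 0.05, and the lowest adjusted p was 0.583. At an unadjusted p under 0.05 there were 1178 genes, of which 538 were higher (3.31% of all genes tested) and 640 lower (3.93%) in pre-MCS-01 wounds. Scaling to total counts in place of the trimmed mean of M values (TMM) changed that split to 338 higher and 795 lower. The 1178 became 454 without blank replicate 2, 772 and 774 without pre-MCS-01 replicates 1 and 2, and 1846 without pre-MCS-01 replicate 3. DESeq2 called 69 genes (13 higher, 56 lower), limma-voom called 0, and limma-voom with library quality weights called 2485 (967 higher, 1518 lower). DESeq2 and the weighted fit shared 65 genes. A fit of the 6 libraries alone called 2 genes. In 1368 genes (8.41%) every pre-MCS-01 library lay above every blank library, and in 970 genes (5.96%) every one lay below. The log2 fold change was above 0 in 54.1% of genes, with a median of 0.04.

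**Figure D1:**
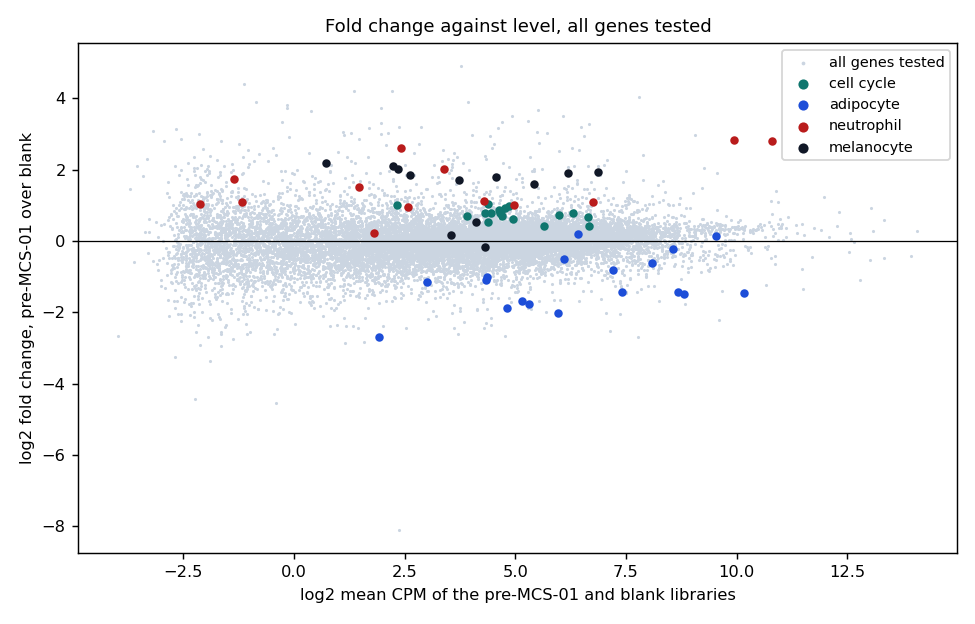
Log2 fold change of pre-MCS-01 over blank wounds (vertical) against log2 mean CPM of the 6 libraries (horizontal) for the 16267 genes tested, with cell cycle, adipocyte, neutrophil and melanocyte genes in colour. The 18 cell cycle genes lie above 0 and 16 of 18 adipocyte genes below it, and no gene passed the threshold (edgeR, lowest adjusted p = 0.583).

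The lowest point of that plot is Slc38a5, an amino acid transporter gene, named after its values were seen. It stood at 0.0249, 0.0568 and 0.0230 CPM in pre-MCS-01 wounds and at 0.353, 16.9 and 13.6 CPM in blank wounds (adjusted p = 0.61, edgeR). The pre-MCS-01 libraries were below the floor of 3 counts, and blank replicate 1 lay far under the other 2 blank libraries.

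The values that follow are CPM on TMM-scaled library sizes, and fold changes are log2 values of pre-MCS-01 over blank wounds with the standard error (SE) of the edgeR fit. The 12 genes with the smallest p in each direction, at a mean of at least 1 CPM, had adjusted p between 0.583 and 0.61 (edgeR). All 24 kept their direction under every alternative that tested them, 18 were among the DESeq2 calls and 24 among those of the weighted fit. The groups overlapped in none of the 24, which were chosen by small p in these libraries.

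**Figure D2:**
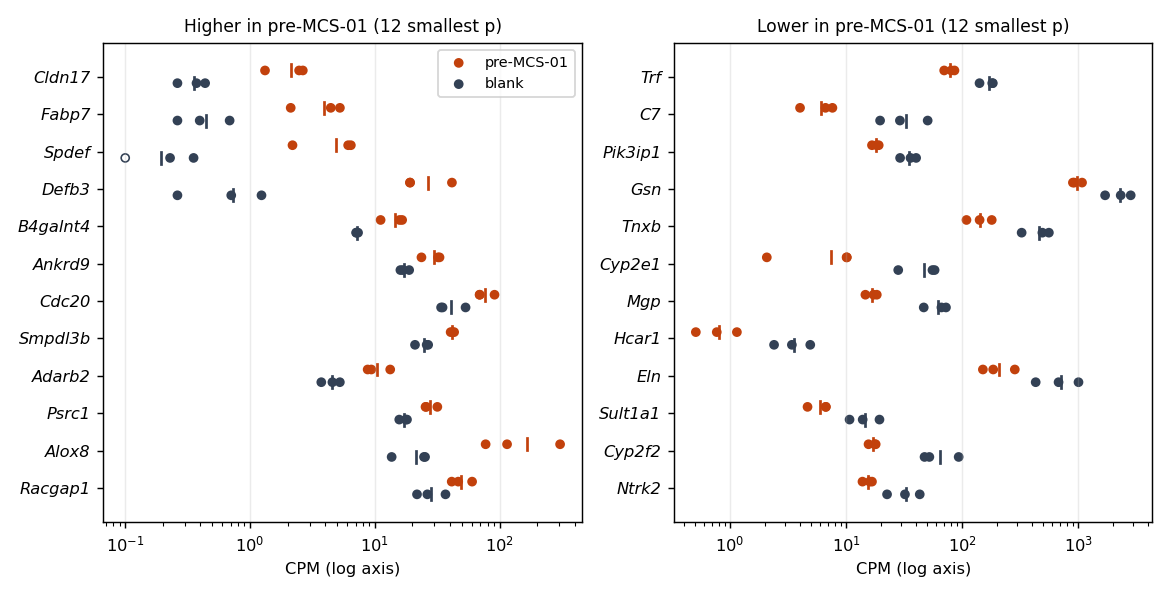
CPM on a log axis in each library for the 12 genes of smallest p that were higher and the 12 that were lower in pre-MCS-01 wounds, with pre-MCS-01 libraries beside blank libraries and short lines at the means; an open circle marks a library with 0 counts, drawn at 0.1 CPM. The groups overlap in none of the 24 genes, and no gene passed the threshold (edgeR, lowest adjusted p = 0.583).

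Among the 12 higher genes of smallest p were Defb3, Cldn17 and Spdef. Defb3 (chromosome 8, 19293360 to 19295291, GRCm38), which encodes an antimicrobial beta-defensin of stressed epithelia, stood at 19.1, 41.4 and 19.1 CPM in pre-MCS-01 wounds and at 1.24, 0.707 and 0.262 CPM in blank wounds. Every pre-MCS-01 library was more than 10 times any blank library, and blank replicate 3 held 1 count. The log2 fold change was 4.91 ± 1.14 (SE, adjusted p = 0.61, edgeR), with 4.43 to 5.38 on leaving out 1 library at a time. Cldn17 (chromosome 16, 88505807 to 88506978), a claudin of tight junctions, stood at 1.32, 2.47 and 2.65 CPM in pre-MCS-01 wounds and at 0.372, 0.437 and 0.262 CPM in blank wounds (2.46 ± 0.48, adjusted p = 0.583, edgeR). Spdef (chromosome 17, 27714352 to 27728955), a transcription factor of secretory epithelial cells, stood at 2.19, 6.11 and 6.42 CPM in pre-MCS-01 wounds and at 0.353, 0.229 and 0 CPM in blank wounds (4.20 ± 0.91). The shallow blank library held 1 count of Cldn17 and 0 of Spdef, under the floor of 3 counts. The part of low counts in the SE of these genes was not tested.

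Alox8 (chromosome 11, 69183932 to 69197843) encodes a lipoxygenase that acts on arachidonic acid in mouse epidermis. It stood at 77.1, 115 and 305 CPM in pre-MCS-01 wounds and at 25.2, 24.7 and 13.6 CPM in blank wounds, a log2 fold change of 2.95 ± 0.77 that was 2.12 to 3.29 on leaving out 1 library. The high value of pre-MCS-01 replicate 3 widened that group, and the groups still did not overlap. Fabp7 (chromosome 10, 57784881 to 57788450), a fatty acid binding protein, stood at 5.25, 4.43 and 2.12 CPM in pre-MCS-01 wounds and at 0.686, 0.395 and 0.262 CPM in blank wounds (2.96 ± 0.63).

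The list of wound-activated keratinocyte genes had 16 members tested, of which 13 were higher and 3 lower in pre-MCS-01 wounds, with a median log2 fold change of 1.25 against 0.04 over all genes. Of these, 4 were higher at an unadjusted p under 0.05 (2 without blank replicate 2), and 0 passed after adjustment with edgeR, 1 with DESeq2 and 6 with the weighted fit. In 10 members every pre-MCS-01 library lay above every blank library. Over all 16267 genes, 3.31% were higher at that unadjusted p and 8.41% were higher without overlap. DESeq2 called 13 of all genes higher and the weighted fit 967. Sprr2d, a small proline-rich protein cross-linked into the cornified envelope, stood at 913, 890 and 1055 CPM in pre-MCS-01 wounds and at 148, 78.3 and 136 CPM in blank wounds (2.98 ± 1.12, adjusted p = 0.669, edgeR). Its relative Sprr2h stood at 164, 176 and 233 CPM in pre-MCS-01 wounds and at 55.8, 27.3 and 50.3 CPM in blank wounds (2.10 ± 0.59). Within each group the libraries of both genes lay close together beside the gap between the groups. The stress keratin Krt6a was less apart, at 2455, 1967 and 2870 CPM in pre-MCS-01 wounds and at 1633, 1690 and 1465 CPM in blank wounds (0.61 ± 0.42).

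The fit of the 6 libraries alone called Sprr2b (3.99 ± 0.28, adjusted p = 0.0232, edgeR) and Uox (3.45 ± 0.28, adjusted p = 0.0333, edgeR). Both were looked at after their values were seen. Sprr2b stood at 426, 359 and 465 CPM in pre-MCS-01 wounds and at 29.7, 28.9 and 17.3 CPM in blank wounds. In the fit of all 12 libraries Sprr2b had a log2 fold change of 4.03 ± 1.49 (adjusted p = 0.669, edgeR), where the SE takes in the spread of the other groups. Uox, the urate oxidase gene, stood at 94.8, 116 and 160 CPM in pre-MCS-01 wounds and at 13.4, 10.4 and 8.65 CPM in blank wounds (3.49 ± 0.94 in the fit of all 12 libraries, adjusted p = 0.61, edgeR). All 8 Sprr2 genes tested, a family gathered for inspection because of Sprr2b, were higher without overlap, against 8.41% of all genes. Sprr2d and Sprr2h among them were already counted in the wound-activated keratinocyte list. Since the family was chosen from these libraries, its count is no separate support. Log2 fold changes were 2.10 to 4.03, and the family summed to between 1840 and 2349 CPM in pre-MCS-01 wounds and between 166 and 313 CPM in blank wounds. Sprr2 genes resemble each other closely, and reads that matched several places were not counted, so levels of single members are uncertain.

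Epidermal differentiation genes were mixed, with 12 of 19 higher and 7 lower (median 0.22), 3 higher and 1 lower at an unadjusted p under 0.05. The shares over all genes were 3.31% higher and 3.93% lower at that p. Without blank replicate 3 the list had 18 higher and 1 lower (median 0.58), and without blank replicate 2 its median was 0.01 with 1 higher at that p. The median was 0.06 with pre-MCS-01 replicate 1 dropped and 0.10 with blank replicate 1 dropped, and 0 were lower at that p with pre-MCS-01 replicate 1 or 2 or blank replicate 2 or 3 dropped. Tgm1, the transglutaminase that cross-links the cornified envelope, stood at 375, 426 and 448 CPM in pre-MCS-01 wounds and at 188, 149 and 244 CPM in blank wounds (1.11 ± 0.39, adjusted p = 0.658, edgeR). Flg2, a filaggrin relative of the cornified layer, stood at 20.4, 60.7 and 70.0 CPM in pre-MCS-01 wounds and at 84.2, 138 and 180 CPM in blank wounds. Neither gene overlapped between the groups, and they lay in opposite directions.

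Neutrophil genes were higher in pre-MCS-01 wounds. All 13 members tested were above 0 in log2 fold change, with a median of 1.13. Of these, 2 were at an unadjusted p under 0.05 and 6 had no overlap between the groups. The shares over all genes were 3.31% higher at that p and 8.41% higher without overlap. S100a8 and S100a9 encode the subunits of calprotectin, abundant in neutrophils and also made by wound keratinocytes. S100a8 (chromosome 3, 90668978 to 90670035) stood at 2373, 1548 and 1227 CPM in pre-MCS-01 wounds and at 259, 157 and 311 CPM in blank wounds (2.82 ± 1.09, adjusted p = 0.669, edgeR). S100a9 (chromosome 3, 90692632 to 90695721) stood at 3892, 2811 and 2666 CPM in pre-MCS-01 wounds and at 508, 303 and 532 CPM in blank wounds (2.80 ± 1.14). The lowest pre-MCS-01 library of each gene was several times the highest blank library. The other members without overlap were Stfa2l1, Lcn2, Ngp and Ltf. Stfa2l1, of the stefin A family of protease inhibitors, stood at 20.2, 3.78 and 3.89 CPM in pre-MCS-01 wounds and at 3.00, 0.499 and 0.524 CPM in blank wounds (2.62 ± 1.33). The receptor genes Csf3r and Cxcr2 overlapped between the groups. Csf3r, the receptor of granulocyte colony-stimulating factor, stood at 72.0, 14.2 and 41.3 CPM in pre-MCS-01 wounds and at 34.3, 15.3 and 12.3 CPM in blank wounds. Cxcr2, the receptor for neutrophil chemokines, stood at 40.7, 13.8 and 25.5 CPM in pre-MCS-01 wounds and at 15.7, 5.59 and 16.0 CPM in blank wounds. In bulk tissue, fewer cells of a type and less RNA per cell cannot be told apart, here and in the results that follow. The median of the list was 0.96 to 1.58 on leaving out 1 library, and no member had an unadjusted p under 0.05 once pre-MCS-01 replicate 1 or blank replicate 2 was left out, and 1 had once blank replicate 3 was.

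Cytokine genes leaned the same way with a wide spread. Of 25 inflammatory cytokine and chemokine genes tested, 21 were higher and 4 lower (median 1.33), and 4 were higher at an unadjusted p under 0.05. Leaving out pre-MCS-01 replicate 3 or blank replicate 2 gave 2 such genes, and leaving out blank replicate 1 gave 7. Dropping pre-MCS-01 replicate 3 also changed the split to 16 higher and 9 lower. The share over all genes, with all libraries, was 3.31% higher at an unadjusted p under 0.05. Il20 (chromosome 1, 130906985 to 130911451), a cytokine that acts on keratinocytes, stood at 0.845, 1.96 and 2.23 CPM in pre-MCS-01 wounds and at 0.0588, 0.208 and 0 CPM in blank wounds (3.74 ± 0.89, adjusted p = 0.61, edgeR). Its neighbour and relative Il19 (chromosome 1, 130932656 to 130940115) stood at 1.67, 9.01 and 10.4 CPM in pre-MCS-01 wounds and at 0.490, 0.270 and 1.57 CPM in blank wounds (3.72 ± 1.14). Neither gene overlapped between the groups, and the lowest pre-MCS-01 value of Il19 lay close to the value of blank replicate 3. For Il20, blank replicate 3 held 0 counts and could lie up to 0.782 CPM, close to the 0.845 CPM of pre-MCS-01 replicate 1.

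The classical mediators overlapped. Il1b, the central cytokine of early wound inflammation, stood at 347, 36.8 and 105 CPM in pre-MCS-01 wounds and at 98.6, 4.55 and 8.65 CPM in blank wounds (2.10 ± 1.502). Blank replicate 1 lay within the range of the pre-MCS-01 libraries. Nos2, the inducible nitric oxide synthase, stood at 4.72, 2.47 and 55.8 CPM in pre-MCS-01 wounds and at 7.80, 2.04 and 0.262 CPM in blank wounds, so that its log2 fold change of 2.47 ± 1.49 was -0.09 without pre-MCS-01 replicate 3. Over the M1 list, markers of classically activated macrophages, 13 of 16 were higher and 3 lower (median 0.72), with 1 at an unadjusted p under 0.05 and no member without overlap. That 1 became 0 on leaving out pre-MCS-01 replicate 3 or blank replicate 2, 2 on leaving out pre-MCS-01 replicate 1 or 2, and 3 on leaving out blank replicate 1. The M1 median was 0.43 and 0.32 in the fits that gave 0, and 1.13 in the fit that gave 3. With all libraries, 1 member of 16 is close to the 3.31% of all genes that were higher at that p.

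**Figure D3:**
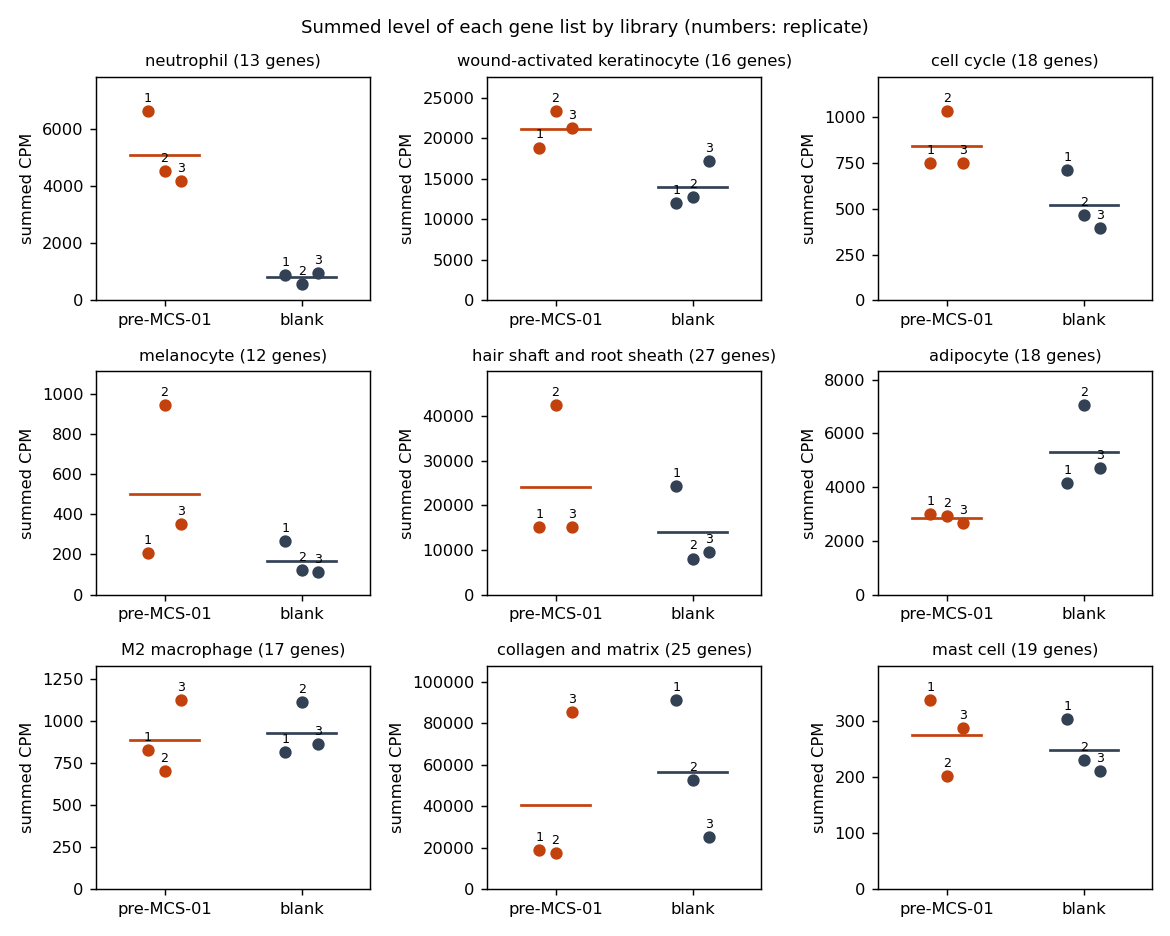
Summed CPM of gene lists in each library, pre-MCS-01 beside blank, with the replicate number as the plotting symbol and lines at the means. The 3 pre-MCS-01 libraries lie between 4157 and 6612 CPM for the neutrophil list and the 3 blank libraries between 585 and 943 CPM. Most of that sum is S100a8 and S100a9, which wound keratinocytes also make. They stood at 2373 and 3892 CPM of the 6612 CPM in pre-MCS-01 replicate 1. In blank replicate 1 they stood at 259 and 508 CPM of 891 CPM.

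Genes of cell division stood higher in pre-MCS-01 wounds by a similar amount each. All 18 cell cycle genes tested had a log2 fold change above 0, the median log2 fold change being 0.77, and 14 were so at an unadjusted p under 0.05. In 9 of them the groups did not overlap. The shares over all genes were 3.31% higher at that p and 8.41% higher without overlap. Cdc20 (chromosome 4, 118432901 to 118437352), which activates the anaphase-promoting complex, is not a member of that list and was named for its small p. It stood at 69.1, 90.9 and 69.1 CPM in pre-MCS-01 wounds and at 53.3, 33.9 and 34.8 CPM in blank wounds (0.90 ± 0.22, adjusted p = 0.61, edgeR). The list member Ccnb2, a mitotic cyclin, stood at 31.5, 44.0 and 20.9 CPM in pre-MCS-01 wounds and at 23.4, 15.6 and 12.8 CPM in blank wounds (0.88 ± 0.28). Pre-MCS-01 replicate 2 was the highest library of both genes, and for Ccnb2 blank replicate 1 lay above pre-MCS-01 replicate 3. Leaving out pre-MCS-01 replicate 2 took the 14 to 0, leaving out blank replicate 2 to 1 and leaving out blank replicate 3 to 5. The 3 libraries low in long transcripts were pre-MCS-01 replicate 2, blank replicate 3 and, outside this comparison, DSCG replicate 2. Without them the 14 became 0 as well, with all 18 genes still above 0 and a median of 0.41. That fit also lost 1 library from each group compared, so a part of transcript length in the fall cannot be told from it. Racgap1 and Psrc1, which act at the division site and on the spindle, had log2 fold changes of 0.79 ± 0.21 and 0.69 ± 0.18. Like Cdc20, they lie outside the list and were among the 12 higher genes of smallest p. Being chosen by small p in these libraries, these genes add no support to the list.

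The promoters of Cdc20 and of the list members Ccnb2 and Plk1 are shown. Late cell cycle genes are known for sharing a cell cycle homology region (CHR) and CCAAT boxes near the start site. Each is the RefSeq sequence of GRCm38.p6 from 250 bases before to 50 bases after the start, 5′ to 3′ on the strand of the gene. Capitals mark every TTTGAA (CHR) and CCAAT on either strand, with the reverse complements TTCAAA and ATTGG. Cdc20 is on the minus strand (chr4:118437294-118437593), Ccnb2 on the minus strand (chr9:70421505-70421804) and Plk1, a mitotic kinase, on the plus strand (chr7:122159185-122159484).
Cdc20: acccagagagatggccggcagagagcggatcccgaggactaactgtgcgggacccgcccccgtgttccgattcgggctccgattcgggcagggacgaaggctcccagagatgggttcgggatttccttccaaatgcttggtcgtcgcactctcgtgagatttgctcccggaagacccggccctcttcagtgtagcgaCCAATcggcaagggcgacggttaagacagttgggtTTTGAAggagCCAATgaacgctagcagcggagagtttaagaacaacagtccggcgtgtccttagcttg
Ccnb2: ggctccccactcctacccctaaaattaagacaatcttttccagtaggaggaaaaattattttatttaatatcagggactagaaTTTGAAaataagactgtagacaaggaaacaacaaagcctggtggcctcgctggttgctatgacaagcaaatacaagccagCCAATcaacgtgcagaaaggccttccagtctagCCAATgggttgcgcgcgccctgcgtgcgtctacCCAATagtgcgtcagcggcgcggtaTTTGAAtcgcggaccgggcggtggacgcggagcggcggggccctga
Plk1: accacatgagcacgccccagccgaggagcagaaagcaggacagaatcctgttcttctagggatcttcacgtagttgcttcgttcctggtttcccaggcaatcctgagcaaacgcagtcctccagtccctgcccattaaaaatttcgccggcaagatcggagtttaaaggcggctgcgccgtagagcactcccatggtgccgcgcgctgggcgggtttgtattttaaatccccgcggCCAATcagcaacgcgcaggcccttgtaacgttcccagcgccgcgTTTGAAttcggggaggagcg
Of the 18 list members, 15 had a promoter in the RefSeq table, and TTTGAA stood in 10 of the 15, against 12.41% of the 12062 promoters of tested genes. CCAAT stood in 14 of the 15, against 37.83%, and both motifs in 10 of the 15, against 5.115%. The 2 motifs share no position in the 3 promoters shown. A match of letters describes the sequence and does not show that a factor binds there. Late cell cycle genes are already known for these motifs, so their excess over all promoters has no bearing on the difference between the groups.

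Fat cell genes were lower in pre-MCS-01 wounds. Of 18 adipocyte genes tested, 16 were lower and 2 higher, the median log2 fold change being -1.28, and 12 were lower at an unadjusted p under 0.05. In 9 of them every pre-MCS-01 library lay below every blank library. The shares over all genes were 3.93% lower at that p and 5.96% lower without overlap. Lep (chromosome 6, 29060220 to 29073877), the gene of the satiety hormone leptin, stood at 1.29, 1.25 and 0.552 CPM in pre-MCS-01 wounds and at 8.37, 6.11 and 5.24 CPM in blank wounds (-2.69 ± 0.67, adjusted p = 0.61, edgeR). Plin4 (chromosome 17, 56100591 to 56109803), a lipid droplet coat protein, stood at 18.7, 16.8 and 19.3 CPM in pre-MCS-01 wounds and at 42.2, 90.5 and 52.1 CPM in blank wounds (-1.76 ± 0.38, adjusted p = 0.583, edgeR). Cidec (chromosome 6, 113424634 to 113435760), which enlarges lipid droplets, stood at 33.2, 31.9 and 8.15 CPM in pre-MCS-01 wounds and at 75.4, 103 and 122 CPM in blank wounds (-2.03 ± 0.52). None of these 3 genes overlapped between the groups.

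Adipoq, the gene of the fat hormone adiponectin, stood at 20.4, 25.6 and 4.46 CPM in pre-MCS-01 wounds and at 33.5, 57.2 and 70.7 CPM in blank wounds (-1.67 ± 0.58). Hcar1 (chromosome 5, 123876736 to 123880020), the lactate receptor of fat cells, was among the 12 lower genes of smallest p, at 1.14, 0.767 and 0.506 CPM in pre-MCS-01 wounds and at 2.39, 4.91 and 3.41 CPM in blank wounds (-2.15 ± 0.45). Cebpa, which fat cells share with keratinocytes and macrophages, stood at 977, 671 and 683 CPM in pre-MCS-01 wounds and at 612, 681 and 838 CPM in blank wounds and overlapped. Leaving out 1 library at a time gave 8 to 12 such members, with 8 once pre-MCS-01 replicate 1 or blank replicate 2 was dropped, and medians of -1.49 to -1.02. Without the 3 libraries low in long transcripts 11 members were lower at an unadjusted p under 0.05. DESeq2 called 4 members lower and the weighted fit 9, against 56 and 1518 lower among all 16267 genes.

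The 12 lower genes of smallest p included 3 genes of matrix proteins, Tnxb, Eln and Mgp. Tnxb (chromosome 17, 34670535 to 34719815), the gene of tenascin-X, which spaces collagen fibrils, stood at 109, 142 and 180 CPM in pre-MCS-01 wounds and at 560, 492 and 326 CPM in blank wounds (-1.68 ± 0.34, adjusted p = 0.583, edgeR). Eln (chromosome 5, 134702593 to 134747323), the gene of elastin, stood at 185, 151 and 285 CPM in pre-MCS-01 wounds and at 1008, 678 and 431 CPM in blank wounds (-1.77 ± 0.37). Mgp (chromosome 6, 136872435 to 136875823), an inhibitor of calcification in soft tissue, stood at 17.2, 18.4 and 14.7 CPM in pre-MCS-01 wounds and at 46.7, 66.3 and 72.6 CPM in blank wounds (-1.88 ± 0.39). The 3 pre-MCS-01 libraries lay below the 3 blank libraries in each of these genes.

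Gsn (chromosome 2, 35256380 to 35307892), the gene of the actin-severing protein gelsolin, stood at 902, 1081 and 926 CPM in pre-MCS-01 wounds and at 1709, 2329 and 2841 CPM in blank wounds (-1.24 ± 0.25, adjusted p = 0.583, edgeR). C7 (chromosome 15, 4988762 to 5063740), a terminal complement component, stood at 6.64, 4.01 and 7.62 CPM in pre-MCS-01 wounds and at 19.6, 50.5 and 29.1 CPM in blank wounds (-2.44 ± 0.47). Trf (chromosome 9, 103204001 to 103230444), the gene of the iron carrier transferrin, had the smallest p of all genes named. It stood at 85.9, 80.5 and 70.0 CPM in pre-MCS-01 wounds and at 141, 184 and 182 CPM in blank wounds, a log2 fold change of -1.10 ± 0.19 that was -1.26 to -1.05 on leaving out 1 library. The narrow range of Trf within each group sets it apart from C7, whose blank libraries spread widely.

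The collagen genes varied widely between libraries of the same group. Of 25 collagen and matrix genes tested, 24 were lower and 1 higher (median -0.45), and Eln alone was lower at an unadjusted p under 0.05. For a list of 25, 1 member is close to the 3.93% of all genes that were lower at that p. Col1a1, the main chain of fibrillar collagen, stood at 4834, 4529 and 30879 CPM in pre-MCS-01 wounds and at 29623, 16960 and 7255 CPM in blank wounds (-0.42 ± 0.78). Col3a1, its partner in young scar, stood at 3982, 3448 and 18410 CPM in pre-MCS-01 wounds and at 21323, 10348 and 4275 CPM in blank wounds (-0.48 ± 0.76). Pre-MCS-01 replicate 3 lay with blank replicate 1, and blank replicate 3 lay nearer to the other pre-MCS-01 wounds. With pre-MCS-01 replicate 3 left out the list had a median of -1.48 and 18 members at an unadjusted p under 0.05, and without blank replicate 1 a median of -0.07 with 8 higher and 17 lower. Members at that p numbered 2 without blank replicate 1 and 3 without blank replicate 3. The median was -0.22 with pre-MCS-01 replicate 1 dropped, -0.16 with pre-MCS-01 replicate 2 dropped and -0.80 with blank replicate 3 dropped.

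**Figure D4:**
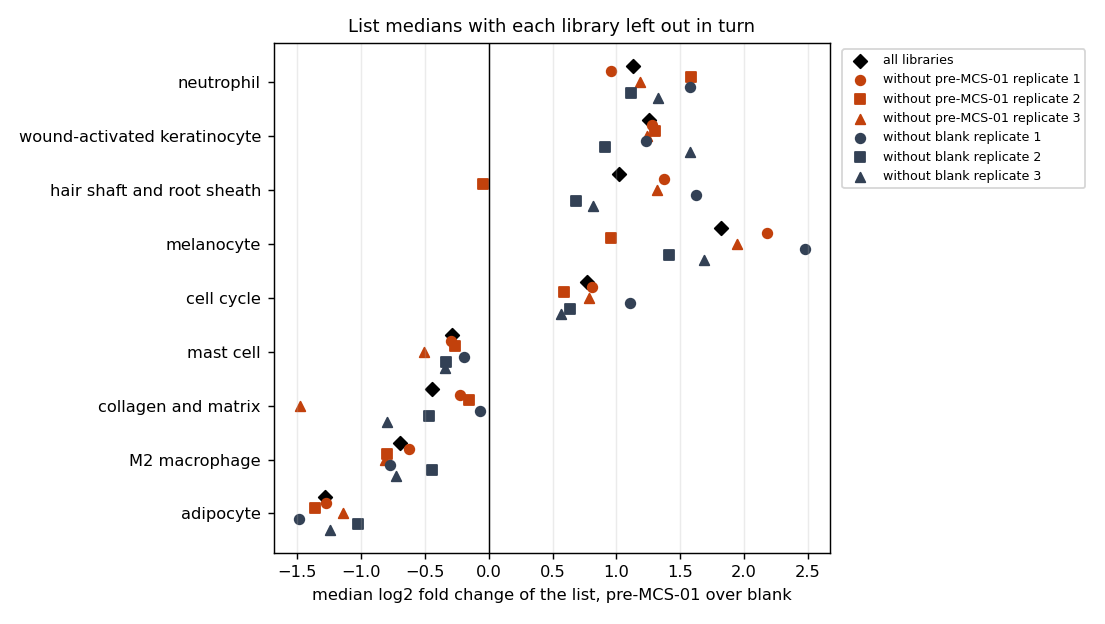
Median log2 fold change of gene lists, pre-MCS-01 over blank wounds, with all libraries and on leaving out each library in turn. The adipocyte median stays between -1.49 and -1.02, while the collagen and matrix median lies between -1.48 and -0.07 and the hair median between -0.05 and 1.63.

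Macrophage markers split within their list. Of 17 genes of alternatively activated (M2) macrophages tested, 12 were lower and 5 higher (median -0.70), with 8 lower and 1 higher at an unadjusted p under 0.05 and 7 lower and 3 higher without overlap. The shares over all genes were 3.93% lower and 3.31% higher at that p. Without overlap they were 5.96% lower and 8.41% higher. The M2 gene that was higher at that p was Arg1 (chromosome 10, 24915221 to 24927484), arginase 1, which wound keratinocytes can also make. It stood at 267, 215 and 307 CPM in pre-MCS-01 wounds and at 92.0, 76.9 and 79.4 CPM in blank wounds (1.67 ± 0.50, adjusted p = 0.61, edgeR). Chil3, a chitinase-like protein of macrophages, stood at 6.81, 6.05 and 12.2 CPM in pre-MCS-01 wounds and at 3.72, 4.26 and 2.36 CPM in blank wounds (1.22 ± 0.56). Neither overlapped between the groups.

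Among the lower members were Folr2, Lyve1, Cd163 and Mrc1, with adjusted p of 0.61 to 0.669 (edgeR). Folr2, a folate receptor of resident macrophages, stood at 24.5, 33.3 and 22.6 CPM in pre-MCS-01 wounds and at 39.2, 58.1 and 53.5 CPM in blank wounds (-0.91 ± 0.28). Lyve1, a hyaluronan receptor of lymphatic vessels and of some macrophages, stood at 8.65, 12.3 and 9.30 CPM in pre-MCS-01 wounds and at 16.9, 17.2 and 14.7 CPM in blank wounds (-0.70 ± 0.23). Cd163, a scavenger receptor for haemoglobin, stood at 40.0, 25.8 and 37.7 CPM in pre-MCS-01 wounds and at 49.9, 147 and 41.4 CPM in blank wounds (-1.21 ± 0.46), and its fold change was -0.45 at the least on leaving out 1 library. The groups did not overlap in these 3 genes, although Cd163 came close. Mrc1, the mannose receptor, overlapped at 36.3, 42.9 and 80.1 CPM in pre-MCS-01 wounds and 100.5, 134 and 68.9 CPM in blank wounds (-0.93 ± 0.35). The number of M2 genes that were lower at an unadjusted p under 0.05 was 4 on leaving out pre-MCS-01 replicate 1, blank replicate 2 or blank replicate 3. The median was -0.45 with blank replicate 2 dropped, and 2 genes were higher at that p with pre-MCS-01 replicate 2 dropped. Beside this list, the general macrophage list had 12 of 14 lower (median -0.49), 1 at an unadjusted p under 0.05, C1qc of complement component C1q (0 to 4 on leaving out 1 library, with 4 once pre-MCS-01 replicate 3 was dropped), and its summed level was 1479 to 1911 CPM in pre-MCS-01 wounds and 2228 to 2336 CPM in blank wounds. The part of that difference in the M2 values was not tested. The 1 general macrophage member at an unadjusted p under 0.05 is close to the 3.93% of all genes that were lower at it.

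Genes of mast cells, the cell type named as the target of the compound, lay on both sides of 0. Of 19 mast cell genes tested, 13 were lower and 6 higher (median -0.29), 1 was lower at an unadjusted p under 0.05 and 0 were higher. For a list of 19, 1 member is close to the 3.93% of all genes that were lower at that p. Leaving out blank replicate 1 gave 3 higher and 0 lower at that p, and leaving out pre-MCS-01 replicate 1, blank replicate 2 or blank replicate 3 gave 0 lower, with 1 higher in the fit that dropped pre-MCS-01 replicate 1. The median was -0.51 with pre-MCS-01 replicate 3 dropped. After adjustment DESeq2 called 0 members, and the weighted fit called 4 lower and 1 higher. Among all 16267 genes the weighted fit called 1518 lower and 967 higher. The list summed to 338, 201 and 288 CPM in pre-MCS-01 wounds and to 303, 231 and 211 CPM in blank wounds and overlapped. The defining proteases were all detected. Cma1, a chymase, stood at 27.7, 27.7 and 33.2 CPM in pre-MCS-01 wounds and at 38.7, 39.3 and 36.9 CPM in blank wounds (-0.38 ± 0.36, adjusted p = 0.806, edgeR). Mcpt4, another chymase, stood at 41.4, 54.6 and 58.8 CPM in pre-MCS-01 wounds and at 66.9, 59.9 and 61.8 CPM in blank wounds (-0.29 ± 0.39). The groups did not overlap in either chymase, with gaps small beside the SE of the fit.

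Tpsb2, a tryptase, stood at 43.7, 35.3 and 49.6 CPM in pre-MCS-01 wounds and at 60.8, 49.5 and 45.9 CPM in blank wounds (-0.28 ± 0.33). Cpa3, carboxypeptidase A3, stood at 13.2, 14.1 and 20.4 CPM in pre-MCS-01 wounds and at 23.8, 22.02 and 17.3 CPM in blank wounds (-0.41 ± 0.31). Both overlapped. Mrgprb2, the receptor through which peptides and drugs trigger mouse mast cells without IgE, was the 1 gene of the list at an unadjusted p under 0.05, at 0.472, 0.966 and 0.667 CPM in pre-MCS-01 wounds and at 1.16, 1.04 and 1.57 CPM in blank wounds (-0.77 ± 0.35, adjusted p = 0.688, edgeR). Fcer1a and Ms4a2, subunits of the IgE receptor, differed by 0.03 ± 0.45 and -0.23 ± 0.50. Hdc, which makes histamine in mast cells and also in neutrophils, stood at 166, 16.99 and 52.7 CPM in pre-MCS-01 wounds and at 40.2, 8.48 and 7.60 CPM in blank wounds (2.03 ± 1.16). Blank replicate 1 lay above pre-MCS-01 replicate 2, so the groups of Hdc overlapped. Among 22 genes of mast cell activation signalling, 15 were lower and 7 higher (median -0.11), with 1 lower at an unadjusted p under 0.05. This too is close to the 3.93% of all genes that were lower at that p. Leaving out blank replicate 1 gave 3 lower and 1 higher at that p, and leaving out pre-MCS-01 replicate 1 or 3 or blank replicate 2 or 3 gave 0. The median was -0.05 without pre-MCS-01 replicate 2 and -0.26 once pre-MCS-01 replicate 3 was dropped.

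**Figure D5:**
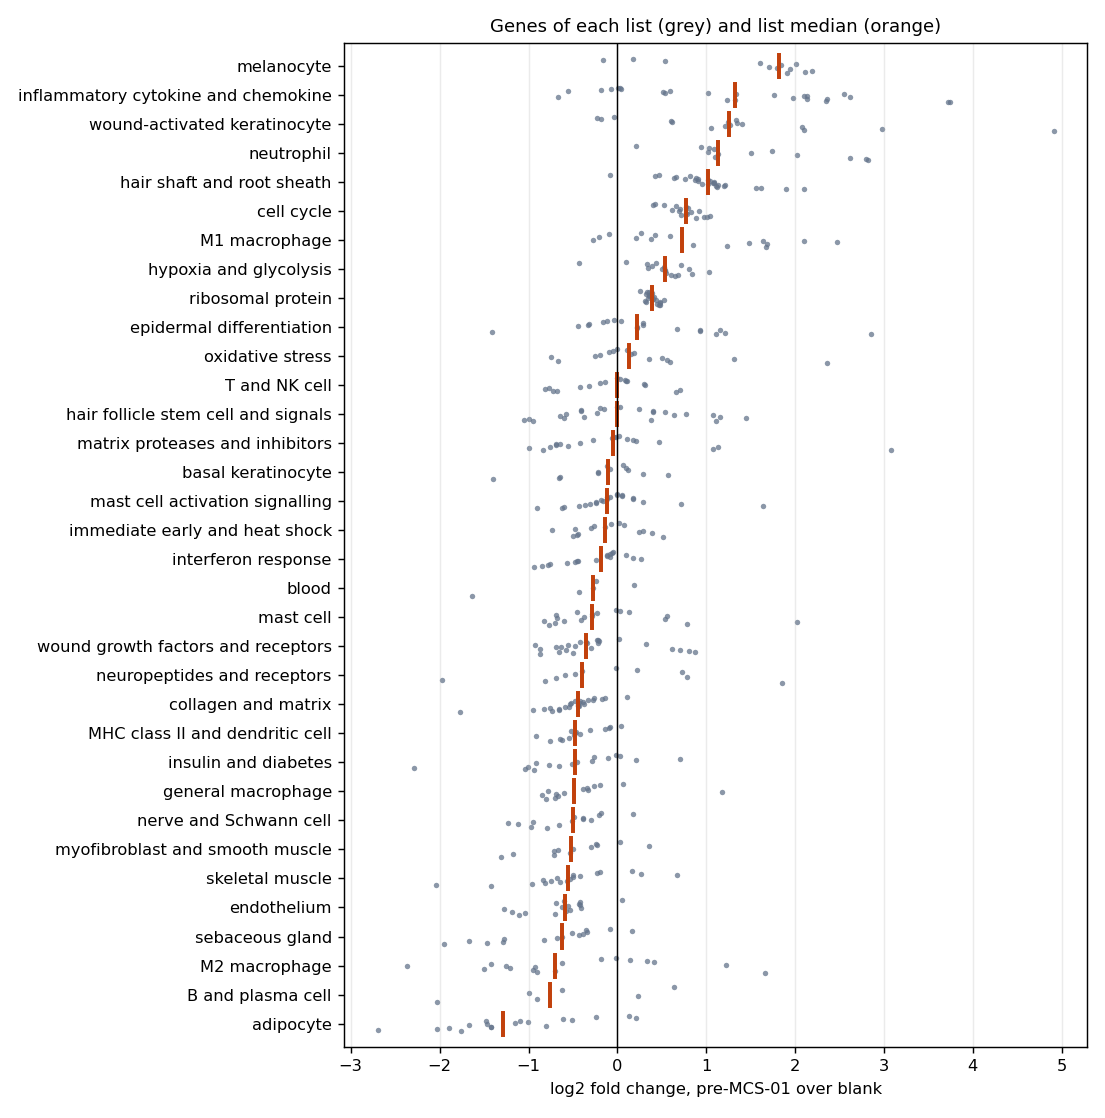
Log2 fold change of pre-MCS-01 over blank wounds for each tested member of the gene lists, 1 point per gene, with the median of each list. All 18 cell cycle genes lie above 0, 16 of 18 adipocyte genes lie below 0, and the 19 mast cell genes lie on both sides with a median of -0.29.

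The direction of the hair genes rested on a single library. Of 27 genes of the hair shaft and root sheath tested, 26 were higher (median 1.02), with 1 at an unadjusted p under 0.05. For a list of 27, 1 member is close to the 3.31% of all genes that were higher at that p. Krt32, a hair cuticle keratin, stood at 38.6, 282 and 70.9 CPM in pre-MCS-01 wounds and at 41.2, 22.5 and 27.8 CPM in blank wounds (2.10 ± 0.93). Krt33a, a hair cortex keratin, stood at 145, 640 and 188 CPM in pre-MCS-01 wounds and at 286, 88.7 and 105 CPM in blank wounds (1.02 ± 0.98). Pre-MCS-01 replicate 2 was the high library in both. Without it the median of the list was -0.05, with 13 genes higher and 14 lower, and without the 3 libraries low in long transcripts it was -0.19. It was 1.63 with blank replicate 1 dropped, and the 1 gene at that p became 0 on leaving out pre-MCS-01 replicate 2 or any 1 blank library.

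Melanocyte genes were highest in the same library. Of 12 tested, 11 were higher and 1 lower (median 1.82), with 6 at an unadjusted p under 0.05 and 0 once pre-MCS-01 replicate 2, blank replicate 2 or blank replicate 3 was left out. The share over all genes was 3.31% higher at that p. The median of the list was 0.95 with pre-MCS-01 replicate 2 dropped. Pmel, which forms the fibrils of the melanosome, stood at 42.8, 222 and 80.4 CPM in pre-MCS-01 wounds and at 50.0, 16.7 and 24.4 CPM in blank wounds (1.91 ± 0.72, and 1.014 at the least on leaving out 1 library). Slc45a2, a melanosome transporter, stood at 3.43, 13.6 and 6.35 CPM in pre-MCS-01 wounds and at 3.41, 0.769 and 0.786 CPM in blank wounds (2.11 ± 0.81). Blank replicate 1 lay as high as pre-MCS-01 replicate 1 in these genes.

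Genes of glycolysis and of the response to low oxygen stood somewhat higher in pre-MCS-01 wounds. Of 18 tested, 17 were higher (median 0.53), 2 at an unadjusted p under 0.05 and 7 without overlap. The shares over all genes were 3.31% higher at that p and 8.41% higher without overlap. Pgk1, phosphoglycerate kinase, stood at 472, 488 and 478 CPM in pre-MCS-01 wounds and at 281, 290.5 and 350.1 CPM in blank wounds (0.64 ± 0.22, adjusted p = 0.642, edgeR). Ldha, which makes lactate, stood at 1026, 1234 and 935 CPM in pre-MCS-01 wounds and at 583, 615 and 789 CPM in blank wounds (0.69 ± 0.25). Adm, a peptide hormone induced by low oxygen, was the 1 lower member. Leaving out blank replicate 1 or 2 gave 0 members at that p, and leaving out pre-MCS-01 replicate 2 gave 6.

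Slc7a11 (chromosome 3, 49892526 to 50443614), the cystine importer that feeds glutathione synthesis, stood at 100.7, 34.1 and 68.8 CPM in pre-MCS-01 wounds and at 14.9, 14.5 and 9.43 CPM in blank wounds (2.36 ± 0.66, adjusted p = 0.61, edgeR). The oxidative stress list, Slc7a11 included, was mixed, with 9 of 16 higher and 7 lower (median 0.13). At an unadjusted p under 0.05, 2 were higher, Slc7a11 and Sod2, against 3.31% of all genes. The median was 0.06 with pre-MCS-01 replicate 2 dropped and 0.08 with blank replicate 1 dropped. Sod2, the mitochondrial superoxide dismutase, stood at 102, 126 and 117 CPM in pre-MCS-01 wounds and at 76.7, 71.7 and 80.7 CPM in blank wounds (0.59 ± 0.19). Neither gene overlapped between the groups.

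In the insulin and diabetes list 13 of 16 genes were lower (median -0.48), 4 of them at an unadjusted p under 0.05 (2 without pre-MCS-01 replicate 2). The share over all genes was 3.93% lower at that p. The median of the list was -0.82 with pre-MCS-01 replicate 3 dropped. Pck1, of gluconeogenesis and of glycerol synthesis in fat, stood at 13.6, 4.89 and 1.86 CPM in pre-MCS-01 wounds and at 14.96, 39.1 and 46.1 CPM in blank wounds (-2.29 ± 0.80). Igfbp3, which binds insulin-like growth factors, stood at 88.7, 87.1 and 87.5 CPM in pre-MCS-01 wounds and at 100.7, 176 and 265 CPM in blank wounds (-1.04 ± 0.32). Pre-MCS-01 libraries were nearly level for Igfbp3, and blank replicate 1 lay just above them. Txnip, a glucose-responsive inhibitor of thioredoxin, overlapped (-0.94 ± 0.28).

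Markers of other tissues in the wound were mostly lower. Endothelial genes were lower in 15 of 16 (median -0.59, 3 at an unadjusted p under 0.05), with the tight junction gene Cldn5 at 18.3, 13.0 and 16.8 CPM in pre-MCS-01 wounds and at 31.4, 34.9 and 37.7 CPM in blank wounds (-1.11 ± 0.35). Nerve and Schwann cell genes were lower in 13 of 14 (median -0.50, 4 at that p), with the myelin gene Pmp22 at 45.2, 57.5 and 54.1 CPM in pre-MCS-01 wounds and at 102.6, 98.9 and 69.7 CPM in blank wounds (-0.79 ± 0.27). Skeletal muscle genes, of the panniculus under the skin, were lower in 15 of 18 (median -0.55, 4 at that p), with myoglobin, Mb, at 81.6, 95.8 and 115 CPM in pre-MCS-01 wounds and at 181, 240 and 367 CPM in blank wounds (-1.43 ± 0.44). None of these 3 genes overlapped between the groups. For these 3 lists, the share over all genes was 3.93% lower at that p. Leaving out pre-MCS-01 replicate 3 gave 8 endothelial genes at that p with a median of -1.0015, and leaving out blank replicate 3 gave 5. The endothelial median was -0.29 when pre-MCS-01 replicate 2 was left out and -0.38 when blank replicate 1 was. The 4 nerve genes became 2 on leaving out pre-MCS-01 replicate 1, blank replicate 1 or blank replicate 2, and the 4 muscle genes became 2 on leaving out pre-MCS-01 replicate 1 or 2. The nerve median was -0.75 with pre-MCS-01 replicate 2 dropped. The muscle median was -0.91 with blank replicate 1 dropped, and -0.25 with blank replicate 2 dropped, where 8 genes were higher and 10 lower.

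Sebaceous gland genes were lower in 14 of 15 (median -0.63, 2 at an unadjusted p under 0.05, against 3.93% of all genes lower at that p). The 2 became 1 on leaving out pre-MCS-01 replicate 1 or blank replicate 2, and the median was -0.98 with pre-MCS-01 replicate 3 dropped. Genes of MHC class II and dendritic cells were lower in 14 of 15 (median -0.48, 1 at that p). Leaving out pre-MCS-01 replicate 1 gave 0 at that p, leaving out blank replicate 1 gave 2, and leaving out blank replicate 3 gave 0 with a median of -0.30. Interferon response genes were lower in 15 of 18 (median -0.18, 1 at that p). The median was -0.39 with pre-MCS-01 replicate 1 dropped and -0.48 with blank replicate 2 dropped, and leaving out pre-MCS-01 replicate 1 or 3 or blank replicate 1 or 3 gave 0 at that p. For the MHC class II and interferon lists, 1 member at that p is close to the 3.93% of all genes that were lower at it. Hair follicle stem cell and signal genes were divided, with 12 higher and 13 lower (median 0.00), although Cd34, a marker of follicle stem cells and of vessels and fibroblasts, stood at 62.1, 104 and 98.7 CPM in pre-MCS-01 wounds and at 239, 162 and 108 CPM in blank wounds (-0.95 ± 0.33). All 21 ribosomal protein genes tested were higher (median 0.39) with 0 at an unadjusted p under 0.05. Leaving out blank replicate 3 gave 10 at that p, leaving out pre-MCS-01 replicate 2 gave a median of 0.02, and the other fits that left out 1 library gave medians of 0.14 to 0.79. Among the 6 libraries, the libraries low in long transcripts held the most of them, with 44426 CPM in pre-MCS-01 replicate 2 and 34462 CPM in blank replicate 3. The part of depth, transcript length and tissue content in the list values was not tested.

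The other treated groups of the study give a setting for the leading genes, with no test made here. Defb3 stood at 43.7, 105 and 24.01 CPM in post-MCS-01 wounds and at 8.38, 5.47 and 0.106 CPM in DSCG wounds. Spdef stood at 9.67, 16.1 and 4.31 CPM in post-MCS-01 wounds and at 0.811, 0.154 and 0.0635 CPM in DSCG wounds. For both genes the ranges of pre-MCS-01 and post-MCS-01 wounds overlapped, as did those of blank and DSCG wounds, and every pre-MCS-01 library lay above every DSCG library. Eln stood at 533, 363 and 793 CPM in post-MCS-01 wounds and at 596, 623 and 517 CPM in DSCG wounds, all of them above the 3 pre-MCS-01 libraries. The adipocyte list summed to 2654 to 2989 CPM in pre-MCS-01, 2258 to 4532 CPM in post-MCS-01, 3551 to 4197 CPM in DSCG and 4163 to 7044 CPM in blank wounds.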

How the data were processed

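Libraries were made from total RNA of frozen wounds with a TruSeq kit, per the labels, and the submitters' processing notes name FastQC, TopHat2, Bowtie2, HTSeq, limma and the build mm10, with versions not given in the sources used here. The authors deposited raw read counts per gene symbol, 24062 genes a library. The summary lines of the files (no feature, ambiguous, not unique) were left out, and reads that were not unique amounted to 17.2% to 23.4% of all entries of a file. Genes were filtered with filterByExpr, counts scaled by TMM, and 16267 genes tested with edgeR 4.0.16 (quasi-likelihood, R 4.3.3) over all 12 libraries, 1 mean per group, Benjamini-Hochberg threshold 0.05. The procedure was tested on simulated counts with known fold changes. CPM use TMM-scaled library sizes. Floors are 3 counts and cover counting error only. GENCODE M21 (GRCm38, the assembly of mm10) gave gene coordinates and exon lengths by symbol.

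Named genes are the 12 of smallest p in each direction with a mean of at least 1 CPM over the 6 libraries and no predicted symbol, since under 10 genes passed, a fixed list of mast cell, macrophage and repair genes, and up to 3 members of smallest p per list, 153 genes in all; Tac1, of that fixed list, had too few counts to be tested. A few further list members were named after their values were seen. Of the 35 gene lists, Emr1, Igj and Epb4.2 were matched by older symbols. The members and the lists were chosen with earlier results of these data known. Groups of 3 against 3 allow no exact two-sided permutation p below 0.1 for a single value. Alternatives were RLE and total-count scaling, no filter, DESeq2 1.42.0, limma-voom 3.58.1 with and without quality weights, edgeR's newer fit, a fit of the 6 libraries alone, binomial thinning to 3835042 counts, a covariate for exon length, and leaving out libraries.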

Additional observations from a re-analysis of the deposited data

How the results depend on the processing

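The count of genes past the threshold was 0 with all 12 libraries, 69 with DESeq2, which gave no adjusted p for 637 genes, 2485 with limma-voom and library quality weights, and 2 in a fit of the 6 libraries alone. It was 0 under RLE or total-count scaling, no filter, limma-voom, edgeR's newer fit, thinning, the length covariate, without the 3 libraries low in long transcripts, and on leaving out any 1 library. At an unadjusted p under 0.05 thinning gave 849 genes, the covariate 1710 and the fit without the 3 libraries 915, against 1178. Single genes changed sign, mostly near 0. Acta2 stood at -0.0777 under total counts, -0.0099 with no filter, -0.19 with quality weights, -0.0093 with 6 libraries, -0.0444 under thinning, -0.45 without the 3 libraries, -0.0184 with the covariate, and -0.26 to 0.19 on leaving out 1 library. Ccl2 stood at -0.0683 under total counts, -0.0109 with no filter, -0.0835 with limma-voom, -0.77 with quality weights, -0.011 with 6 libraries, -0.0226 under thinning, -0.24 without the 3 libraries, -0.08 with the covariate, and -0.26 to 0.36 on leaving out 1 library. Fcer1a stood at -0.0028 under RLE, -0.0588 under total counts, -0.0102 with no filter, -0.0096 with 6 libraries, and -0.21 to 0.13 on leaving out 1 library. With quality weights Kit stood at -0.0745, Il6 at -0.14 and Cxcl1 at -0.30. Without the 3 libraries Tchh stood at -0.15, Krt33a at -0.18 and Alas2 at 0.10. Ddx3y stood at -0.0053 under total counts, and Kdm5d at 0.084 with the covariate. On leaving out 1 library Nos2 ranged from -0.0913 to 3.79, Il6 from -0.29 to 2.04, Cxcl1 from -0.0941 to 1.63, Krt10 from -0.20 to 0.68, Mmp9 from -0.15 to 0.36, Col1a1 from -1.98 to 0.11, Col3a1 from -1.73 to 0.20, Ddx3y from -0.0041 to 0.10 and Kdm5d from -0.49 to 0.14. The cause of these changes was not tested. No paired analysis was possible because the labels give the groups no shared replicate numbers. The shallow blank replicate 3 limits genes under about 1 CPM.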
